A study of Mus musculus with 6 samples.

Results

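The epicardial and mesothelial identity genes described here are 10 genes chosen by name: the transcription factors Wt1, Tcf21 and Tbx18, the cell surface proteins Upk3b, Upk1b, Msln and Lrrn4, and the keratins Krt8, Krt18 and Krt19. All 10 were found among the 54532 genes of the count table, and all 10 were among the 14246 genes with enough reads to be tested. Krt8 and Krt18 passed that filter through the induced libraries alone. The cells were hTERT-immortalized cardiosphere-derived cells of C57BL/6 mice, labelled as heart ventricle and described in the methods of the study as derived from the epicardium of the adult heart. The 3 control libraries came from this line at passage 30. The 3 induced libraries came from the same line at passage 30 after 10 µM 5-azacytidine for 3 days and a further 4 weeks in IMDM with 2% FBS. 5-azacytidine is a cytidine analogue that blocks DNA methyltransferases. The labels and the methods differ on the medium and length of that second culture, and although the line was routinely grown in a serum-rich IMDM-based medium, the sources used here do not say whether and how long the sequenced control dishes were. Drug, serum and time in culture therefore cannot be told apart. Both groups carry the lentiviral telomerase transgene and derive from 1 immortalized line, so the spread between libraries is that within this line and may be technical.

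The epicardium is the mesothelial sheet on the surface of the heart. In development, some of its cells lose their epithelial form, enter the heart wall and become fibroblasts and mural cells. WT1, TCF21 and TBX18 are the transcription factors by which embryonic epicardium is usually recognised. Uroplakins, mesothelin and LRRN4 are surface proteins of mesothelial cells. Simple epithelia, mesothelium included, build their intermediate filaments from pairs of 1 type I keratin, such as KRT18 or KRT19, and 1 type II keratin, such as KRT8.

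Because the inducing drug blocks the enzymes that methylate cytosines, mostly at CpG, the sequences before the start sites of 4 members are shown with each CpG in capitals. They are from RefSeq (GRCm38.p6) and run 5′ to 3′ on the strand of the gene, up to the start of the gene in the count table. For Krt8 this leaves 110 of the 250 bases before the RefSeq start, because 140 lie inside the gene. For Krt18 it leaves 214, with 36 inside the gene. Krt18 and Krt8 rose most, Upk3b rose less, and Tbx18 fell.
Upk3b, chr5:136038246-136038495, plus strand: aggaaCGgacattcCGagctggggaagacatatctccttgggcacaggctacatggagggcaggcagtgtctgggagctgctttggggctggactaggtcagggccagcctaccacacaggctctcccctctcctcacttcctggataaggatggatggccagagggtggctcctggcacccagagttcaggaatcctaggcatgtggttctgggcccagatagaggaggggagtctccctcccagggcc
Tbx18, chr9:87731261-87731510, minus strand: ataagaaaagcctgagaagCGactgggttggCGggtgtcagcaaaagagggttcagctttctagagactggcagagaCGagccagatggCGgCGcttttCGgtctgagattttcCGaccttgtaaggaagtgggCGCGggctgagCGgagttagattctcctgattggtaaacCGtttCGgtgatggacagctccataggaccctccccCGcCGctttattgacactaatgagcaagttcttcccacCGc
Krt18, chr15:102027966-102028179, plus strand: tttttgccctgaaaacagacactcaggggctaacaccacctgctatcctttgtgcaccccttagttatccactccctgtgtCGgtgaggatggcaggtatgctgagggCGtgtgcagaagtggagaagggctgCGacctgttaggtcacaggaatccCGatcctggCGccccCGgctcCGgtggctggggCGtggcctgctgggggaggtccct
Krt8, chr15:102004483-102004592, minus strand: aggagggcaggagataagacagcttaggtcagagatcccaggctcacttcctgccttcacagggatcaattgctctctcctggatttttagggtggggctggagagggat

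RefSeq promoters, from 250 bases before to 50 bases after the start, were at hand for 6 of the 10 members: Tcf21, Tbx18, Upk3b, Lrrn4, Krt8 and Krt18. Their CpG counts were 17 for Krt18, 15 for Tbx18, 8 for Tcf21, 7 for Lrrn4, 6 for Krt8 and 2 for Upk3b, where the median of all 32851 mouse promoters in the same table was 7. The 2 richest of these 6 promoters belonged to Krt18, which rose, and Tbx18, which fell. No methylation was measured, and whether it had a part in these changes was not tested. The TEAD motif GGAATG stood once in the promoters of Upk3b, starting at -241, and of Lrrn4, starting at -196, counted on either strand, and 14.7% of all promoters hold it. The E-box CAGCTG was found in Krt8, at 40 bases past the start (16.3% of all promoters), and the GATA motif AGATAA in Krt8 at -239 and Tcf21 at -31 (11.2%). The T-box motif AGGTGTGA was in none of the 6 windows (1.28% of all promoters), nor was the longer Wt1 motif (0.0548%). None of these motifs overlap one another in the 6 windows.

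Counted reads numbered 19041133 to 19823369 per library, spread over 19591 to 20501 genes. Where a library has no read of a gene, a level of up to 0.150 to 0.159 CPM remains possible (the value of 3 counts), which covers counting error only. Levels are given as TMM-scaled CPM (the share of a library's reads, scaled for library composition), as mean ± SD over 3 libraries. Differences are log2 fold changes of induced over control cells from edgeR's quasi-likelihood test, called at a Benjamini-Hochberg adjusted p of 0.05 over all genes tested.

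Of the 10 members, 8 were higher and 2 were lower in induced cells. The share of all tested genes called either way was 64.8%, with 32.6% higher and 32.2% lower. For each of the 10 members the ranges of both groups were separate. Among all tested genes the ranges were separate for 68.6%, with 34.1% higher and 34.5% lower. The 8 members that rose did so by at least 2-fold, a size reached by 9.29% of tested genes upwards and 7.83% downwards, and of the 2 that fell only Krt19 reached it. The median log2 fold change was 1.79 for the members and -0.01 for all tested genes. Without Krt8 and Krt18, 6 members were higher and 2 lower, with a median of 1.58. In bulk RNA, a change in the share of cells that express a gene and a change in its RNA per cell cannot be told apart.

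**Figure D1:**
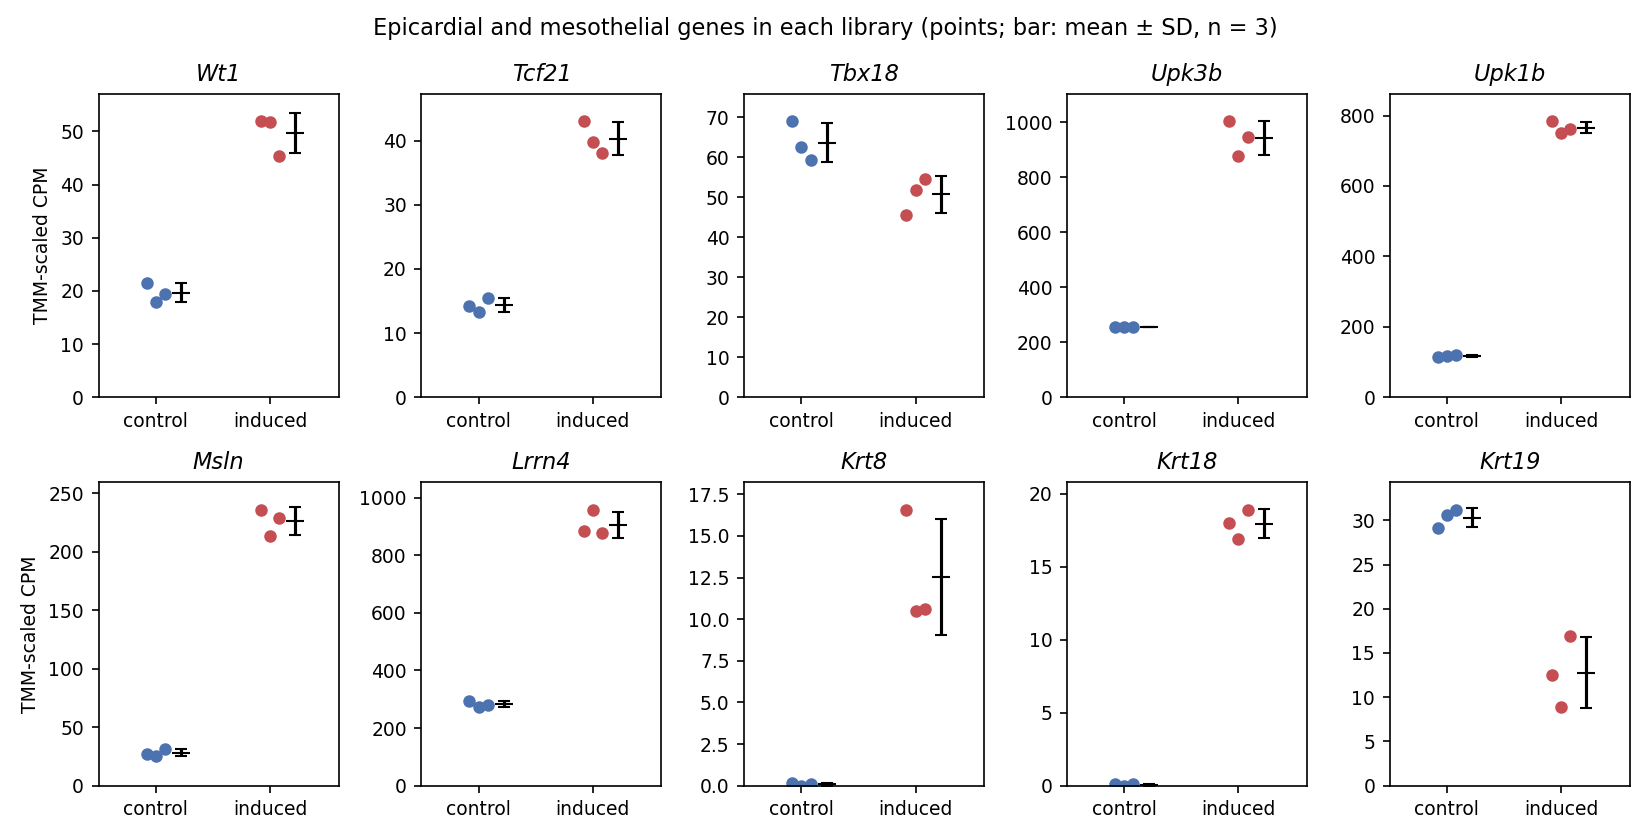
TMM-scaled CPM (linear axes from 0, 1 panel per gene) of the 10 epicardial and mesothelial genes in each of the 3 control (blue) and 3 induced (red) libraries, with mean ± SD beside the points. In 8 panels every induced point lies above every control point, and for Tbx18 and Krt19 every induced point lies below.

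The transcription factors did not move together. Wt1, a zinc finger factor needed for epicardial development, lies on chromosome 2 (105126529 to 105173616, plus strand). Its level in the control libraries was 21.5, 17.9 and 19.4 CPM, and in the induced libraries 51.9, 51.8 and 45.4 CPM. All induced libraries were above all control libraries, and the mean rose 2.53-fold, from 19.6 ± 1.78 to 49.7 ± 3.70 CPM (1.34 on the log2 scale, SE 0.08, edgeR adjusted p 3.21e-11). The antisense RNA gene Wt1os ends 18 bases before Wt1 starts and shares no exon base with it.

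Tcf21, a basic helix-loop-helix factor required for the fibroblast lineage of the epicardium, lies on chromosome 10 (22817281 to 22820174, minus strand). The control libraries had 14.2, 13.4 and 15.5 CPM and the induced libraries 43.0, 39.8 and 38.0 CPM. The groups were wide apart, and the mean rose 2.80-fold, from 14.4 ± 1.10 to 40.3 ± 2.56 CPM (log2 fold change 1.49, SE 0.08, edgeR adjusted p 1.07e-11).

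Tbx18, the T-box factor by which the study names these cells, lies on chromosome 9 (87702800 to 87731260, minus strand). Its level was 69.0, 62.6 and 59.4 CPM in the control libraries and 45.6, 51.9 and 54.6 CPM in the induced libraries. The lowest control library and the highest induced library were close, and the mean fell 1.26-fold, from 63.7 ± 4.90 to 50.7 ± 4.60 CPM (log2 fold change -0.33, SE 0.07, edgeR adjusted p 0.000429). Of its exon bases, 20.6% are shared with D030062O11Rik on the opposite strand, to which 46 control reads and 26 induced reads were counted. The strand setting of the counting is not given in the sources used here, so reads of that stretch are uncertain.

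The balance between Tbx18 and Wt1, taken within each library and so whatever the scaling, differed between the groups. The log2 ratio of Tbx18 to Wt1 reads was 1.68, 1.80 and 1.61 in the control libraries, and -0.19, 0.00 and 0.26 in the induced libraries. Control cells thus had more Tbx18 than Wt1 reads in every library, and induced cells had about as many of each. The mean ratio went from 1.70 ± 0.10 to 0.03 ± 0.23, a difference of -1.67 (exact permutation test over samples, two-sided, p = 0.1, the smallest that 3 libraries against 3 can give). Of 4 such ratios set out, 2 could be tested, and adjustment over both left p at 0.1.

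Among the other T-box genes, 8 more were tested. Tbx20, a cardiac factor, rose (log2 fold change 0.79), and Tbx3 (-1.62) and Tbx5 (-0.67) fell, while 5 did not pass the test. The family as a whole had 9 of 17 genes tested, 1 higher and 3 lower, with a median log2 fold change of -0.09. The E proteins that pair with TCF21 and the Id proteins that sequester them had 7 of 7 genes tested, 3 higher and 1 lower. The Id genes Id1 (1.74), Id3 (0.93) and Id2 (0.80) rose, and the E protein gene Tcf3 fell (-1.10). Of 5 WT1 cofactors, Cited2 (0.70) and Wtip (0.31) rose, Basp1 (-0.52) fell, and Pawr (0.14, edgeR adjusted p 0.0532) and Wtap (0.11) did not pass the test. Among all tested genes 32.6% were called higher and 32.2% lower, and whether these lists differ from that share was not tested.

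All 4 surface protein genes rose, each by more than 3-fold. Their summed level was 670 to 689 CPM in the control libraries and 2801 to 2907 CPM in the induced libraries. Upk1b, a tetraspanin of the uroplakin family, lies on chromosome 16 (38773184 to 38800328, minus strand). It had 114, 117 and 121 CPM in the control libraries and 784, 751 and 762 CPM in the induced libraries. Within each group these values were tight, and the mean rose 6.54-fold (log2 fold change 2.71, SE 0.05, edgeR adjusted p 3.15e-18).

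Upk3b, a single-pass uroplakin and a common marker of mesothelium, lies on chromosome 5 (136038496 to 136046487, plus strand). It had 255, 254 and 254 CPM in the control libraries and 1003, 878 and 945.5 CPM in the induced libraries. The control libraries were nearly equal and all induced libraries were above them, a rise of 3.71-fold (log2 fold change 1.89, SE 0.05, edgeR adjusted p 6.12e-16). Of the other uroplakins, which together with these form the plaques of bladder epithelium, Upk1a did not pass the test (0.420 ± 0.287 and 0.651 ± 0.276 CPM, edgeR adjusted p 0.282). Upk2 had 0 and 2 reads, Upk3bl had 1 and 4, and Upk3a had none in either group.

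Msln, which encodes the glycoprotein mesothelin, lies on chromosome 17 (25748614 to 25754327, minus strand). It had 27.5, 25.7 and 31.2 CPM in the control libraries and 236, 213 and 229 CPM in the induced libraries. Each induced library was several times above each control library, and the mean rose 8.04-fold (log2 fold change 3.01, SE 0.07, edgeR adjusted p 8.21e-17). The log2 ratio of Msln to Upk3b reads was -3.21, -3.30 and -3.02 in the control libraries, and -2.09, -2.04 and -2.04 in the induced libraries. The difference was 1.12 (exact permutation test over samples, two-sided, p = 0.1, again the smallest possible). Reads of Muc16, the mucin that binds mesothelin, numbered 6 in the controls and 176 after induction, 30.6 times more per scaled depth (95% interval 13.8 to 84.4). It was singled out after its values were seen.

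Lrrn4, a leucine-rich repeat membrane protein, lies on chromosome 2 (132868305 to 132880891, minus strand). It had 293, 274 and 281 CPM in the control libraries and 883, 959 and 877 CPM in the induced libraries. The induced libraries were again all above the controls, with a mean of 906 ± 45.3 against 283 ± 9.49 CPM (log2 fold change 1.68, SE 0.05, edgeR adjusted p 1.65e-15).

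Levels of different genes were compared as deposited FPKM, which corrects for gene length. In control cells the surface proteins Lrrn4 (75.4 ± 2.60 FPKM), Upk3b (71.3 ± 0.241) and Upk1b (55.5 ± 1.65) led. They were followed by Krt19 (16.2 ± 0.576), Tbx18 (13.4 ± 1.02), Msln (13.2 ± 1.35), Tcf21 (6.05 ± 0.476) and Wt1 (3.14 ± 0.288), with Krt18 and Krt8 under 0.1 FPKM. Only Tbx18 and Msln, and Krt18 and Krt8, overlapped with their neighbour in this order. In induced cells the order was Upk1b (366 ± 8.54 FPKM), Upk3b (266 ± 18.2), Lrrn4 (244 ± 11.8), Msln (107 ± 5.67), Tcf21 (17.1 ± 1.10), Krt18 (12.5 ± 0.706), Tbx18 (10.7 ± 0.969), Wt1 (8.01 ± 0.591), Krt19 (6.88 ± 2.16) and Krt8 (6.40 ± 1.79). Here Upk3b overlapped with Lrrn4, and Krt19 with both Wt1 and Krt8. Upk1b thus went from the third to the first place, and Tbx18 went from above to below Tcf21. The FPKM of Msln rests on a deposited length of 2114 bases, where the exons in GENCODE M21 span 3064 bases, so its place is less certain.

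The keratins split. Krt18 (chromosome 15, 102028180 to 102032027, plus strand), the type I keratin of simple epithelia, had 2, 0 and 2 reads in the control libraries and 339, 322 and 361 reads in the induced libraries. Krt8 (chromosome 15, 101996698 to 102004482, minus strand), its type II partner, had 3, 0 and 2 reads in the control libraries and 312, 199 and 202 reads in the induced libraries. Both genes were at the limit of detection in control cells and present in every induced library, with the induced library 1 highest for Krt8.

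Over all libraries of a group, Krt18 had 4 control reads against 1022 induced reads, 266 times more per scaled depth (95% exact interval for counting error 104 to 979, edgeR adjusted p 1.11e-14). Krt8 had 5 against 713 reads, 149 times more (interval 63.4 to 459, edgeR adjusted p 7.88e-12). In CPM, Krt18 reached 18.0 ± 0.993 and Krt8 reached 12.5 ± 3.50 in induced cells. Their processed copies took few reads: Krt8-ps, which is 98.6% identical to Krt8 over 941 bases, had 0 and 3 reads, and Gm5200, which is 90.5% identical to Krt18 over 1267 bases, had none. The log2 ratio of Krt18 to Krt8 reads was 0.12, 0.69 and 0.84 in the induced libraries, and was not defined in control library 2, so it was not tested.

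Krt19 (chromosome 11, 100140810 to 100148665, minus strand), a type I keratin that also occurs in simple epithelia, went the other way. It had 29.1, 30.6 and 31.2 CPM in the control libraries and 12.5, 8.94 and 16.9 CPM in the induced libraries. The induced libraries varied more than the controls but were all below them, and the mean fell 2.37-fold, from 30.3 ± 1.06 to 12.8 ± 4.00 CPM (log2 fold change -1.24, SE 0.14, edgeR adjusted p 2.74e-07). The log2 ratio of Krt19 to Krt18 reads was 8.17 and 8.28 in control libraries 1 and 3, and -0.53, -0.92 and -0.16 in the induced libraries, with none in control library 2.

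Of 54 keratin genes in the table, 27 had a read and 8 were tested, of which Krt8, Krt18 and Krt14 reached the filter in the induced group only and Krt13 in the control group only. Besides Krt8 and Krt18, the type II keratin Krt7 rose by 3.87 on the log2 scale, with 4.03 ± 0.506 CPM before and 59.0 ± 3.92 CPM after induction (edgeR adjusted p 2.07e-16). Krt14, a type I keratin of basal cells, rose from 0.489 ± 0.0287 to 12.2 ± 2.98 CPM (4.62, edgeR adjusted p 8.57e-12), and Krt80 rose as well (0.79). Krt13 had 47, 52 and 25 reads in the control libraries and none in the induced libraries, at least 39.7-fold lower against 3 counts over the group, and Krt10 did not pass the test.

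The make-up of the keratin transcripts, examined after the single genes were seen, changed accordingly. Summed over all keratins, the deposited FPKM was 19.7 to 20.5 in the control libraries and 37.4 to 47.6 in the induced libraries. Krt19 held 79.1% to 83.3% of it in control cells and 12.8% to 19.1% in induced cells, while Krt18 went from at most 0.355% to between 27.6% and 31.4%. Type II keratins held 5.91% to 7.06% in control cells, so that type I transcripts were in large excess, and 33.0% to 39.9% in induced cells. Krt7 and Krt8 made up most of the type II share in the induced libraries, with 18.4% to 21.02% and 11.3% to 18.9% of all keratin FPKM.

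**Figure D2:**
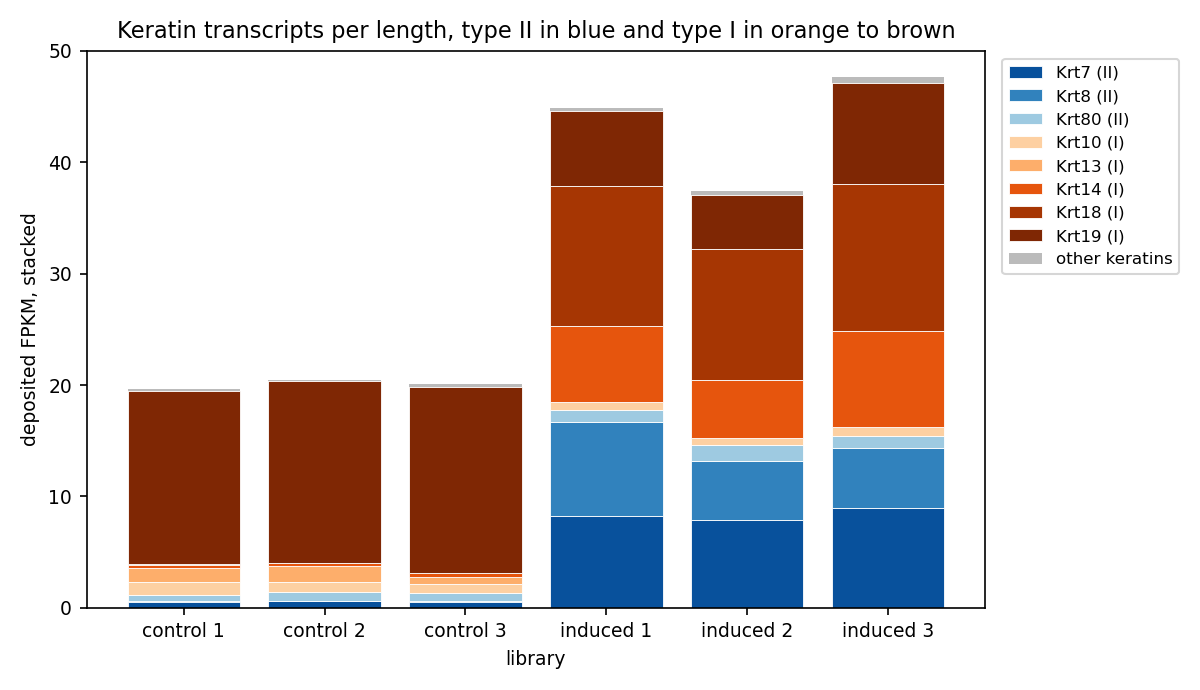
Deposited FPKM of keratin genes stacked per library, type II keratins in blue and type I keratins in orange to brown, for 3 control and 3 induced libraries. The control bars reach 19.7 to 20.5 FPKM and are mostly Krt19, and the induced bars reach 37.4 to 47.6 FPKM and hold Krt7, Krt8, Krt14 and Krt18 beside a smaller Krt19 part.

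Krt8 and Krt18 lie next to each other on chromosome 15, 23697 bases apart, and were compared with the genes within 500 kb on either side, after their change was seen. On the Krt8 side lie 36 genes, 18 of them keratins. None was tested, and together they took 3 control reads and 8 induced reads. On the Krt18 side lie 33 genes, of which 20 were tested, 6 higher and 10 lower. Among these Igfbp6, a binding protein of insulin-like growth factors, rose (log2 fold change 2.40), and Amhr2, the receptor of anti-Müllerian hormone, went from 7 to 97 reads (3.78). The nearest tested neighbour of Krt18, the translation factor gene Eif4b, fell (-0.97), and the separase gene Espl1 fell furthest (-2.05). Over the whole of chromosome 15, 51.3% of 561 tested genes were lower and 20.5% were higher, with a median log2 fold change of -0.24. On the other chromosomes the median was between -0.06 and 0.17.

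**Figure D3:**
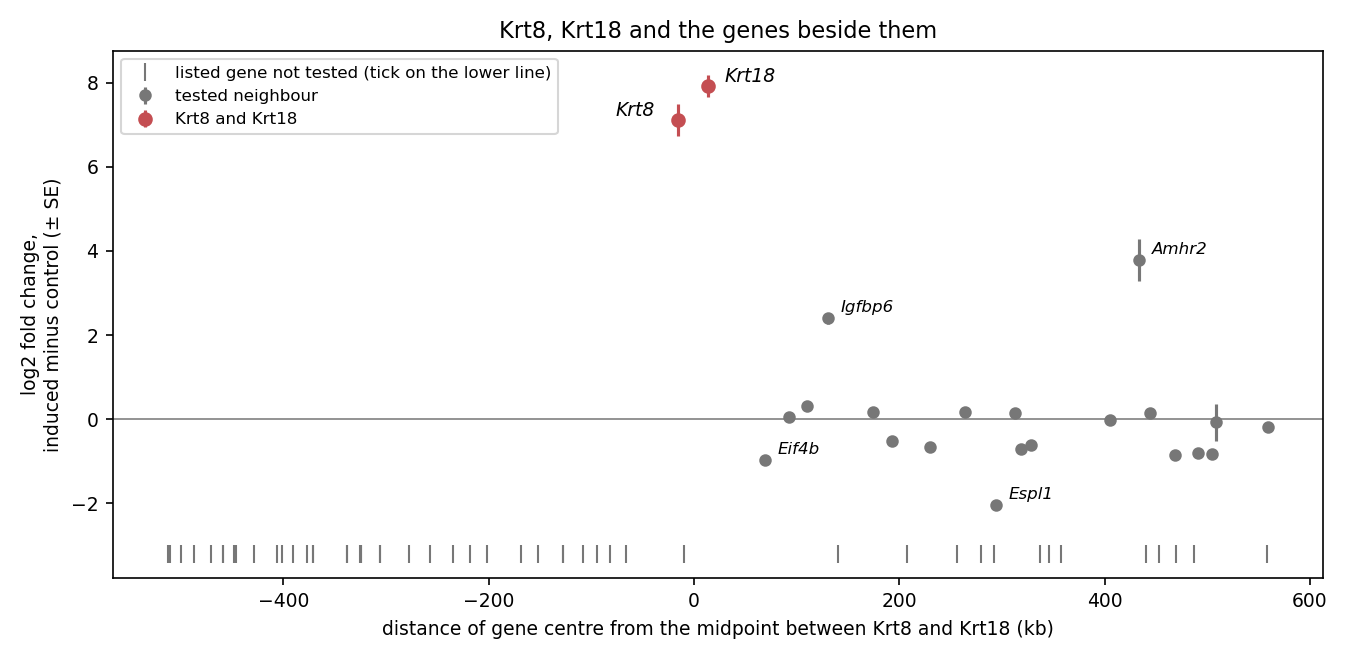
Log2 fold change (± SE) of Krt8, Krt18 and the tested genes within 500 kb of them, against the distance of the gene centre from the midpoint between both genes, with ticks for listed genes that were not tested. Krt8 and Krt18 stand at 7.11 and 7.93, the Krt8 side holds only untested genes, and the tested genes on the Krt18 side run from -2.05 to 3.78.

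Beyond the 10 members, 22 other genes of epicardium and mesothelium were listed. Of these 20 were tested, 15 were higher and 3 lower, with a median log2 fold change of 1.57, against 32.6% and 32.2% of all tested genes. Pdpn, Efemp1 and Muc16 reached the filter in all libraries of the induced group only and Aldh1a2 in those of the control group only, and among the 16 genes that reached it in both groups 12 were higher and 2 lower, with a median of 1.41. The retinal dehydrogenase gene Aldh1a1 stood at 347 ± 4.97 CPM before and 1986 ± 24.7 CPM after induction, a rise of 2.52 on the log2 scale (edgeR adjusted p 2.06e-18). Pdpn, the mucin-like membrane protein podoplanin, rose from 0.219 ± 0.0308 to 41.9 ± 0.248 CPM (7.54, edgeR adjusted p 1.22e-17), with 13 reads in all control libraries.

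Gpm6a, a membrane glycoprotein gene, rose from 116 ± 4.02 to 514 ± 15.8 CPM (log2 fold change 2.14). For the extracellular matrix gene Efemp1, 3 control reads stood against 1812 induced reads, 630 times more (interval 215 to 3056). The 3 genes that fell were Ildr2 (-0.77), the prostacyclin synthase gene Ptgis (-0.47) and Aldh1a2, which makes retinoic acid in embryonic epicardium (-2.50, from 2.12 ± 0.702 to 0.369 ± 0.103 CPM). Prg4 (0.14, edgeR adjusted p 0.162) and Bnc2 (-0.01, edgeR adjusted p 0.944) did not pass the test.

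**Figure D4:**
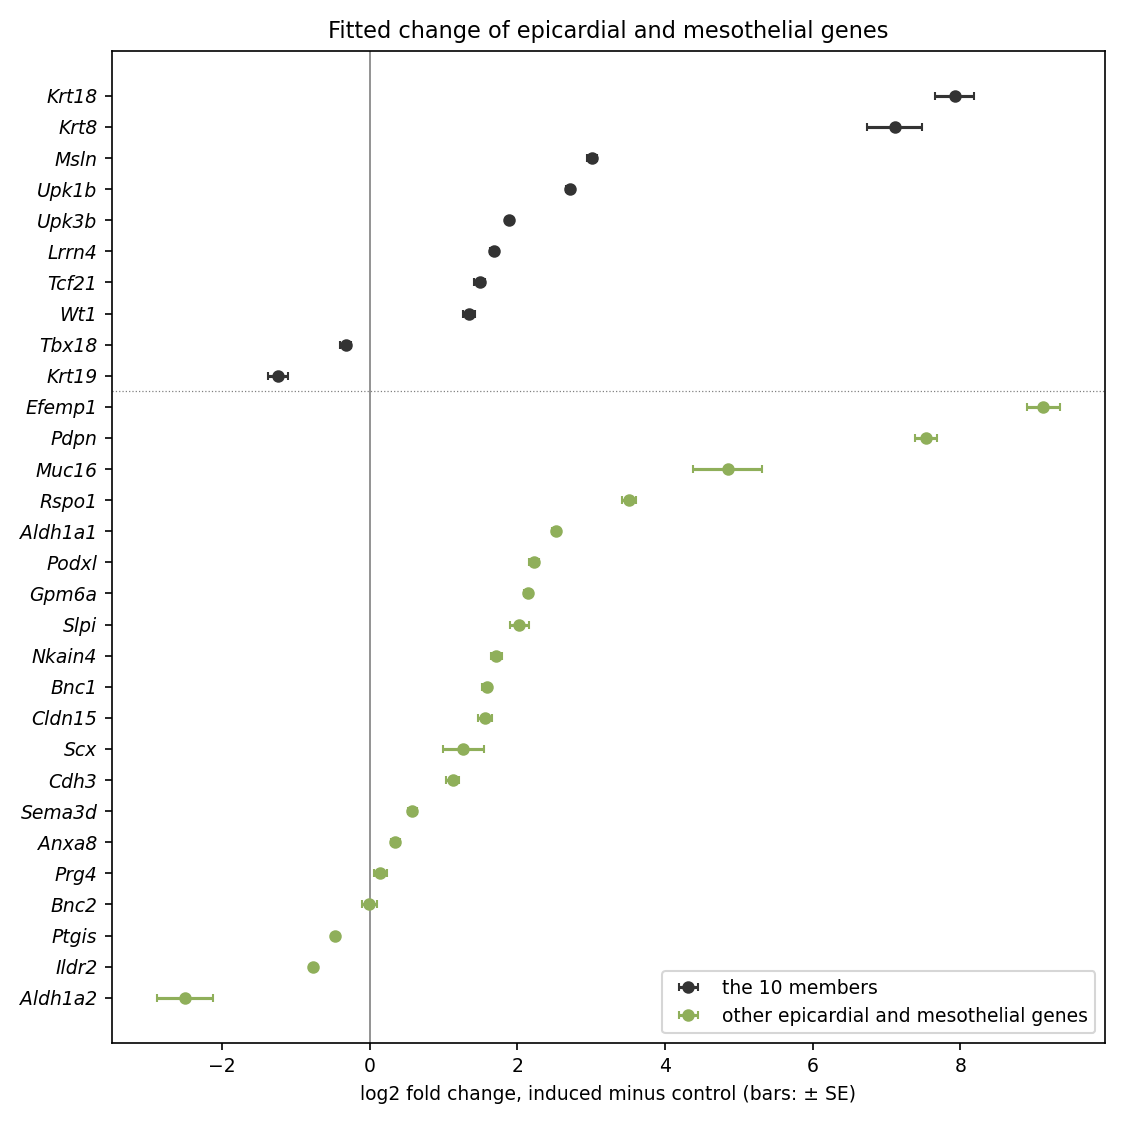
Log2 fold change (± SE) of induced over control cells for the 10 members (black) and 20 other tested epicardial and mesothelial genes (green), in order of size within each set. Of the members only Tbx18 and Krt19 lie left of 0, and of the other genes Efemp1 (9.13) and Pdpn (7.54) lie furthest right and Aldh1a2 (-2.50) furthest left.

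YAP and TAZ, the coactivators of the TEAD factors, are known to be needed for epicardial development. All 12 genes listed for this pathway were tested, and 9 were higher and 2 lower, against 32.6% and 32.2% of all tested genes. Their median log2 fold change was 0.54. The 9 include the kinase genes Lats2 (0.77) and Lats1 (0.18), so the count does not measure YAP activity, which was not tested. The target genes Ctgf (1.60), Amotl2 (1.20) and Ankrd1 (0.69) rose, while Tead2 fell from 98.9 ± 3.46 to 24.2 ± 0.700 CPM (-2.03). Tead3 fell by 0.63 on the log2 scale, whereas Tead1 (0.66), Tead4 (0.56) and the TAZ gene Wwtr1 (0.39) rose. Yap1 itself did not pass the test (0.09, edgeR adjusted p 0.128).

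Genes of epithelial junctions and identity numbered 24, of which 12 were tested, 10 higher and 1 lower, with a median log2 fold change of 1.57. The shares of all tested genes were 32.6% higher and 32.2% lower. Of the genes that rose, 5 (Grhl2, Pkp3, Cdh1, Cldn3 and Dsp) reached the filter in the induced group only, so the filter favoured their rise. Dsg2 reached it in the control group only and did not pass the test (-0.24, edgeR adjusted p 0.586). Among the 6 genes that reached it in both groups, 5 were higher and 1 lower, with a median of 1.04. The junction genes F11r (1.22), Pkp2 (2.33) and Jup (1.07) rose. Grhl2, an epithelial transcription factor, had 0 reads in every control library and 45, 39 and 44 reads in the induced libraries, at least 44.5-fold higher against 3 counts over the group. The splicing factor gene Esrp2 fell (-0.86). Epcam had 1 read in each group, and Cldn4 and Ovol2 had none. Other junction genes with too few reads to test went either way. Dsc2 had 3, 3 and 7 control reads and none after induction, at least 4.16-fold lower against 3 counts over the group. Cldn1 had 5 control and 17 induced reads (ratio 3.54, interval for counting error 1.26 to 12.3).

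Of 18 mesenchymal genes, all tested, 2 were higher and 14 lower, against 32.6% and 32.2% of all tested genes. Their median log2 fold change was -0.47. The homeobox gene Prrx1 fell from 486 ± 2.74 to 131 ± 7.39 CPM (-1.89), the fibronectin gene Fn1 fell (-0.92) and the smooth muscle actin gene Acta2 fell (-0.95). The mesenchymal cadherin gene Cdh11 (1.77) and the collagen gene Col1a2 (0.33) rose.

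**Figure D5:**
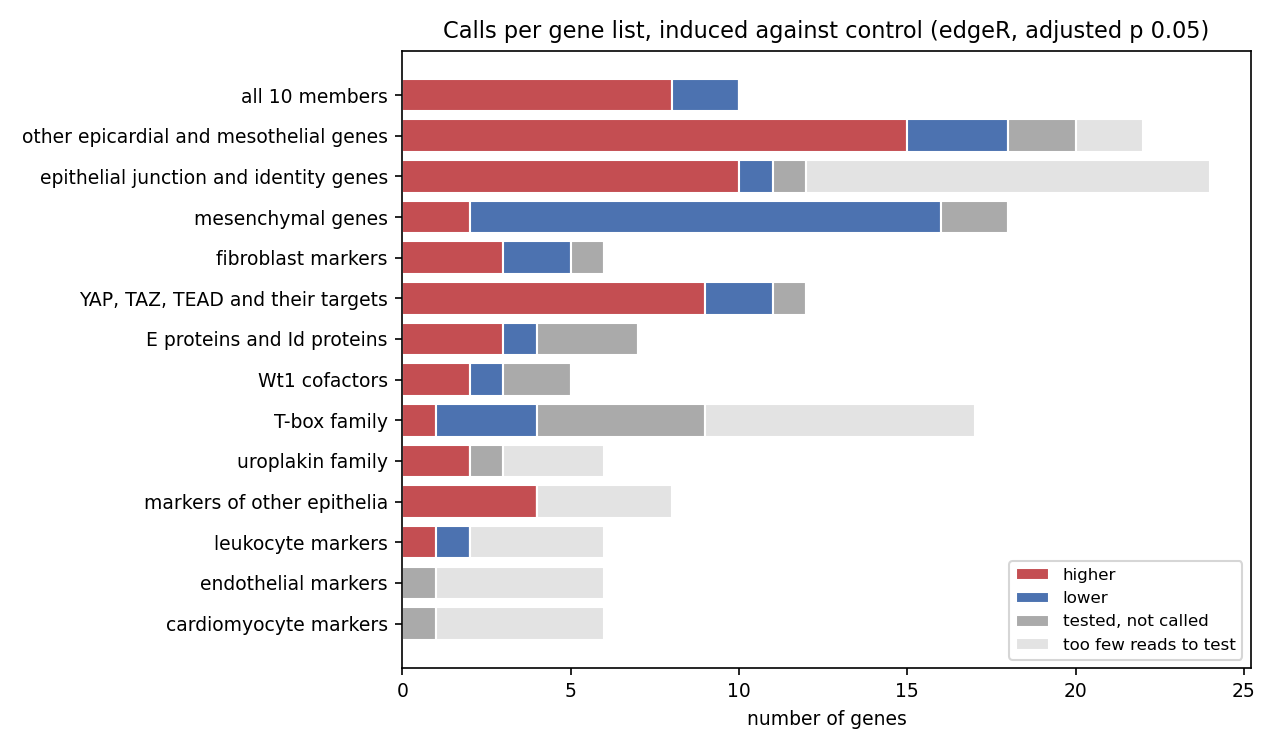
Number of genes per list called higher (red), lower (blue), tested but not called (dark grey) or with too few reads to test (light grey), induced against control cells. Of the genes tested, some of which passed the filter through the higher group only, 15 of 20 in the list of other epicardial and mesothelial genes and 10 of 12 in the junction list were higher, and 14 of 18 in the mesenchymal list were lower.

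Markers of other cell types moved with the members in part, and their part in the result was not tested. The counts below stand beside 32.6% higher and 32.2% lower among all tested genes. Of 8 markers of other epithelia, 4 were tested and all 4 (Krt7, Krt14, Cdh1 and Grhl2) were higher, of which only Krt7 reached the filter in both groups. The list had a summed level of 4.81 to 5.61 CPM in control and 70.5 to 83.9 CPM in induced libraries. Epcam, Esrp1, Krt5 and the lung gene Sftpc had at most 4 reads in either group. The 6 fibroblast markers were all tested, with 3 higher and 2 lower, and their summed level was 8386 to 8742 CPM in control and 8376 to 8779 CPM in induced libraries. Lum (4.37), Dcn (2.19) and Dpt (1.57) rose and Pdgfra (-0.73) and Col1a1 (-0.36) fell, and Gsn did not pass the test.

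Of 6 leukocyte markers, Ptprc, Tyrobp, Cd52 and Itgam had 0 reads in all 6 libraries, while Cd68 rose (3.89) and Csf1r fell (-1.05). Their summed level was 23.6 to 25.8 CPM in control and 36.4 to 42.8 CPM in induced libraries. Endothelial markers summed to 1.60 to 1.89 CPM in control and 1.21 to 2.31 CPM in induced libraries, with Pecam1, Cdh5 and Emcn at 6 reads or fewer per group. Vwf, the 1 endothelial gene tested, did not pass (edgeR adjusted p 0.345). Tek, which had too few reads to be tested, had 3, 2 and 2 reads in the control libraries and 9, 10 and 13 in the induced libraries, 4.76 times more (interval for counting error 2.07 to 12.8). Kdr, also with too few reads, went from 11 control to 5 induced reads (ratio 0.474, interval 0.129 to 1.48). Tek and Kdr were named after their values were seen. Cardiomyocyte markers summed to 1.503 to 1.63 CPM in control and 2.55 to 3.05 CPM in induced libraries, and Tnni3, the 1 tested, did not pass (edgeR adjusted p 0.144). Ryr2, a calcium channel of heart muscle likewise not tested, had 0, 0 and 1 reads in the control libraries and 9, 10 and 10 in the induced libraries, 30.2 times more (interval 5.01 to 1235). The myosin genes of heart muscle stayed near the detection limit, with Myh6 at 0 and 1 reads and Myh7 at 3 and 4 reads in control and induced cells. By contrast, 8 of the 10 members were well above that limit in both groups.

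By their profile over the 6 libraries, the genes most like Wt1 among 9462 with at least 10 CPM were Serp1, Tspan3 and Apmap (Pearson r of log2 CPM 0.999 to 1.00). Those most like Upk3b were Smpd1, Sparc and Ckmt1 (r 1.00). Such values describe little more than the step between the groups, since 1951 genes had r over 0.95 with Wt1 and 2024 with Upk3b. The step of Tbx18 was smaller relative to its spread within the groups, and only 56 genes had r over 0.95 with it. They were led by Brd7 (0.997), H3f3a (0.992) and Snx10 (0.985).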

How the data were processed

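RNA sequencing libraries of 3 control and 3 induced samples, grouped by their labels, were analysed from 1 table of 54532 genes. The authors deposited raw read counts per gene and library, and FPKM values (counts corrected for gene length and library depth) in the same table. The submitters' processing notes name mm10, HISAT2 2.0.5, featureCounts 1.5.0-p3 and DESeq2 1.16.1, and the strand setting is not given in the sources used here. The fold changes and p-values of the authors' own comparison in that table, and their Gene Ontology tables, hold their findings and were not used. GENCODE M21 lists 98.3% of the genes at the same coordinates.

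The members, gene lists and tests were chosen with earlier results of these data known. Low genes were removed by filterByExpr at a count of 10 and a total of 15, so that 14246 genes holding 99.9% of the reads remained. Libraries were scaled by TMM and tested with edgeR 4.0.16 in R 4.3.3 (quasi-likelihood test, two-sided, Benjamini-Hochberg adjusted p of 0.05). A gene was said to reach the filter in a group where all 3 of its libraries had at least 0.516 CPM, the level that the count of 10 stands for. The biological coefficient of variation was 5.82%. Each standard error is the log2 fold change divided by the square root of F. The prior count of the fits was 0.125. Ratios of pooled reads have exact 95% binomial intervals. The test was checked on simulated counts.

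Named genes were all members, up to 4 tested genes per list with the smallest p, defining markers at 0 reads, and the 3 genes most like Wt1, Tbx18 and Upk3b. A gene that this rule selects is not reported here. Genes outside this rule, named after their values were seen, were Muc16, Ildr2, Ptgis, Aldh1a2, Prg4, Bnc2, Krt80, Krt13, Krt10, Esrp2 and Dsg2. Others were Tead1, Tead3, Tead4, Wwtr1, Yap1, Lats1, Lats2, Wtap, Col1a2, Cldn1 and Dsc2. The neighbours of Krt8 and Krt18 and some markers of other cell types were also named in this way. The keratin make-up, the neighbourhood and the chromosome medians were likewise added later. Near-identical copies were sought with blastn 2.17.0 (at least 90% identity over 500 bases). Within groups, libraries differed by more than sampling noise (chi-square per degree of freedom 2.56 to 8.91). Results were recomputed without each library in turn, with the replicate number as a block, at a threshold of 0.01, with DESeq2 1.42.0, with its size factors in edgeR or unscaled totals, with no filter or a stricter one, and with limma 3.58.1 on log2(FPKM + 1) or log2(FPKM + 0.1).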

Additional observations from a re-analysis of the deposited data

How the results depend on the processing

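The 10 members kept their direction and their side of the threshold under every alternative tried, 150 of 150 values, with 8 called higher and 2 lower each time. The lowest and highest log2 fold changes were 1.12 and 1.42 for Wt1, and -0.38 and -0.26 for Tbx18, whose largest adjusted p was 0.00963, with limma on log2(FPKM + 1). Krt19 ran from -1.49 to -1.04. Krt8 ran from 2.80 to 7.79 and Krt18 from 3.69 to 8.30, both lowest on the log2(FPKM + 1) scale, by whose construction low genes move less. The number of all genes called was 7783 at an adjusted p of 0.01, 8593 with DESeq2, 9765 without a filter and 8514 to 9348 when 1 library was left out. With library totals alone the share of calls that were higher was 46.5% instead of 50.3%, and the median of all genes moved by -0.04. Replicate numbers did not pair the samples (correlation of deviations -0.05, -0.04 and 0.04 for the 3 numbers), and with a replicate block 9063 genes, 8 members higher and 2 lower, were called. Of the other named genes, 592 of 599 values kept their call and 7 newly passed the threshold (Pawr under 5 alternatives and Tnni3 under 2), and of the counts per list 408 of 420 stayed within 1.5 times. Among the rest, 1 endothelial marker was called higher without a filter and without each control library or induced replicate 1, and 1 or 2 cardiomyocyte markers with limma or without a filter, where the reported fit called none. The ratios of Krt18 to Krt8 and of Krt19 to Krt18 could not be formed in control library 2, so no alternative was run for them. Depth limits what can be said of Krt8 and Krt18 in control cells, where a level under 0.150 to 0.159 CPM cannot be told from 0.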
